A study of Mus musculus with 9 samples.

Results

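The 30 genes described here encode the enzymes that build cholesterol and fatty acids and the proteins that set their output. They were chosen by name, from every non-control probe whose RefSeq transcript identifier maps to 1 of the 30 symbols, which took in 47 of 56605 distinct probes. All 30 genes were measured, out of 16842 genes tested, and the probe used for each was well above background on all 9 arrays, so that no member was lost to the filter on dim probes. RNA came from whole lungs of 9 mice and was hybridised to one-colour Agilent arrays, 1 array per lung. Every mouse carried TRF1flox/flox, the floxed gene (Terf1) of the telomere-binding protein TRF1, and all were given tamoxifen, 250 mg/kg each week, starting when they were 8 weeks old. Controls were littermates without SPC-cre, sampled at 11 months of age with 9 months of tamoxifen behind them (n = 3). SPC-creTRF1flox/flox lungs were taken from mice either 5 months old with 3 months of tamoxifen (3-month cre, n = 3) or 11 months old with 9 months of it (9-month cre, n = 3). SPC is surfactant protein C, a product of alveolar type 2 cells, so that the transgene marks 1 cell type while the RNA came from all cells of the lung. In such bulk RNA, fewer cells of a type and less RNA per cell cannot be told apart. The 3-month cre lungs have no control of their own age, and their comparison with the controls joins genotype, age and length of tamoxifen exposure.

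Cholesterol is made from acetyl-CoA through mevalonate, squalene and lanosterol, and fatty acids are made from acetyl-CoA by carboxylation, chain building, elongation and desaturation. Both routes are under the SREBP transcription factors, which leave the endoplasmic reticulum with their escort SCAP when membrane sterol is low and are held back by INSIG proteins when it is high. In the lung, alveolar type 2 cells use these enzymes to make the lipids of surfactant, and alveolar macrophages take surfactant lipid up.

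SREBPs bind sterol response elements, usually beside the factor NF-Y at CCAAT boxes, and the stretches before 5 of the start sites are shown because their genes cover mevalonate entry (Hmgcs1), the isoprenoid step (Idi1), the late sterol steps (Msmo1, Sc5d) and fatty acid synthesis (Fasn). Each is the 250 bases before a RefSeq transcript start in GRCm38.p6, written 5′ to 3′ on the strand of the gene. Capitals mark matches to TCACNCCAC, a form of the sterol response element, and to the CCAAT box. Both strands were searched, and a CCAAT on the opposite strand shows as its reverse complement.
Hmgcs1, chr13:119690101-119690350, plus strand: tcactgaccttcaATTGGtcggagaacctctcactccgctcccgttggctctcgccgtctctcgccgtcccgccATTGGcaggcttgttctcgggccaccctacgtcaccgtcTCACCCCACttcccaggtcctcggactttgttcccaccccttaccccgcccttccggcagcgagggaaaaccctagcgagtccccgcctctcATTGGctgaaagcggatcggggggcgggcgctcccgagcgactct
Idi1, chr13:8885356-8885605, plus strand: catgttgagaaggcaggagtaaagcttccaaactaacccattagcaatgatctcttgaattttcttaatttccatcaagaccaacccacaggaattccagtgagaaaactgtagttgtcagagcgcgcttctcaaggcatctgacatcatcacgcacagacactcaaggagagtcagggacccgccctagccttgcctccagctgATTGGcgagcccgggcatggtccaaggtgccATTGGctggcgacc
Msmo1, chr8:64733579-64733828, minus strand: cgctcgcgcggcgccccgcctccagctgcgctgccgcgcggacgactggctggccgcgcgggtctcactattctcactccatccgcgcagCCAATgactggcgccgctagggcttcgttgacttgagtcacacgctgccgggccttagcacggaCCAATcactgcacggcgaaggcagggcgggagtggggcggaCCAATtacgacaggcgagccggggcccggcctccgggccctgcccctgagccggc
Sc5d, chr9:42264301-42264550, minus strand: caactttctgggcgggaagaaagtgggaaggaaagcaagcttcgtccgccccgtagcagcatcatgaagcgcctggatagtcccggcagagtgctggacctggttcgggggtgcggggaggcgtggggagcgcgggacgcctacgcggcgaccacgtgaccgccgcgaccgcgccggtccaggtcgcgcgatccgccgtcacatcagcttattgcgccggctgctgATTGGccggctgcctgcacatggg
Fasn, chr11:120824548-120824797, minus strand: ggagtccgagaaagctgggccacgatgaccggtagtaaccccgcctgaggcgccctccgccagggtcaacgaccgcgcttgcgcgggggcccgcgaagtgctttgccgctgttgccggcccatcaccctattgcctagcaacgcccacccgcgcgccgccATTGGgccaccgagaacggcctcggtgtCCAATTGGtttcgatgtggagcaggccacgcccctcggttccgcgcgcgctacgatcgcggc
Windows reaching from 250 bases before to 50 bases after a start were at hand for 23 of the 30 genes, 30 windows in all. TCACNCCAC, searched on both strands, was found in 1 of these 30 windows, that of Hmgcs1, where it begins 137 bases before the start as TCACCCCAC, and in 1.24% of all 32817 windows. CCAAT was found in 20 of the 30 windows, belonging to 19 genes, and in 37.4% of all windows. The 2 motifs share no base in the sequences shown, while in Fasn a CCAAT on each strand overlaps within CCAATTGG. These matches are descriptions of letters and were not measured as binding sites.

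The arrays had a 75th percentile of processed signal of 958 to 1430 intensity units, a median local background of 28 to 35 units and no saturated spots (0 on each array). Levels below are log2 processed signal relative to that percentile on the same array, and a gene is called at an adjusted p under 0.05 in limma over all 16842 genes. Sftpc, the gene of SPC, stood at 7.89 to 8.60 on every array. Terf1 was at -0.07 ± 0.28 (SD, n = 3) in controls, -0.63 ± 0.05 in 3-month cre and -0.59 ± 0.33 in 9-month cre lungs and was not called against controls (limma adjusted p = 0.190 and 0.131). The 3 controls and 3-month cre replicate 1 lay on slide 1, and the other 5 arrays lay on slide 2. The slides differed in detection, with 62.7 to 64.9% of probes well above background on slide 1 arrays and 67.9 to 72.4% on slide 2 arrays. The file headers also give the 2 slides different scan dates. By Xist and Y-linked probes all 3 controls read as male and each cre group as 1 male and 2 females. Slide and sex therefore differ between the groups, and their part in the values below was not tested beyond the blocked and within-slide values given. The 9-month cre arrays share no slide with the controls, so that slide and genotype cannot be told apart in that comparison. Blocking on the slide there takes the slide difference from the 3-month cre arrays alone, 1 on slide 1 and 2 on slide 2. The 2 comparisons with controls share the control arrays, and each is given by its own values.

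Across the 30 genes the 3-month cre lungs stood above both other groups in most members, and 1 member, Fads1, passed the test, in the comparison of the cre groups. Of the 30 genes, 22 had their highest group mean in 3-month cre lungs, 4 in controls and 4 in 9-month cre lungs. Averaged over members, the deviation of an array from the gene means was -0.07, -0.27 and 0.02 in control replicates 1 to 3. It was 0.24, 0.10 and 0.20 in 3-month cre replicates 1 to 3 and 0.13, -0.07 and -0.27 in 9-month cre replicates 1 to 3. The 3-month cre arrays lay together, with an SD of 0.07, and all above the controls, while the 9-month cre arrays were spread from above the controls to the level of the lowest control, with an SD of 0.20.

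**Figure D1:**
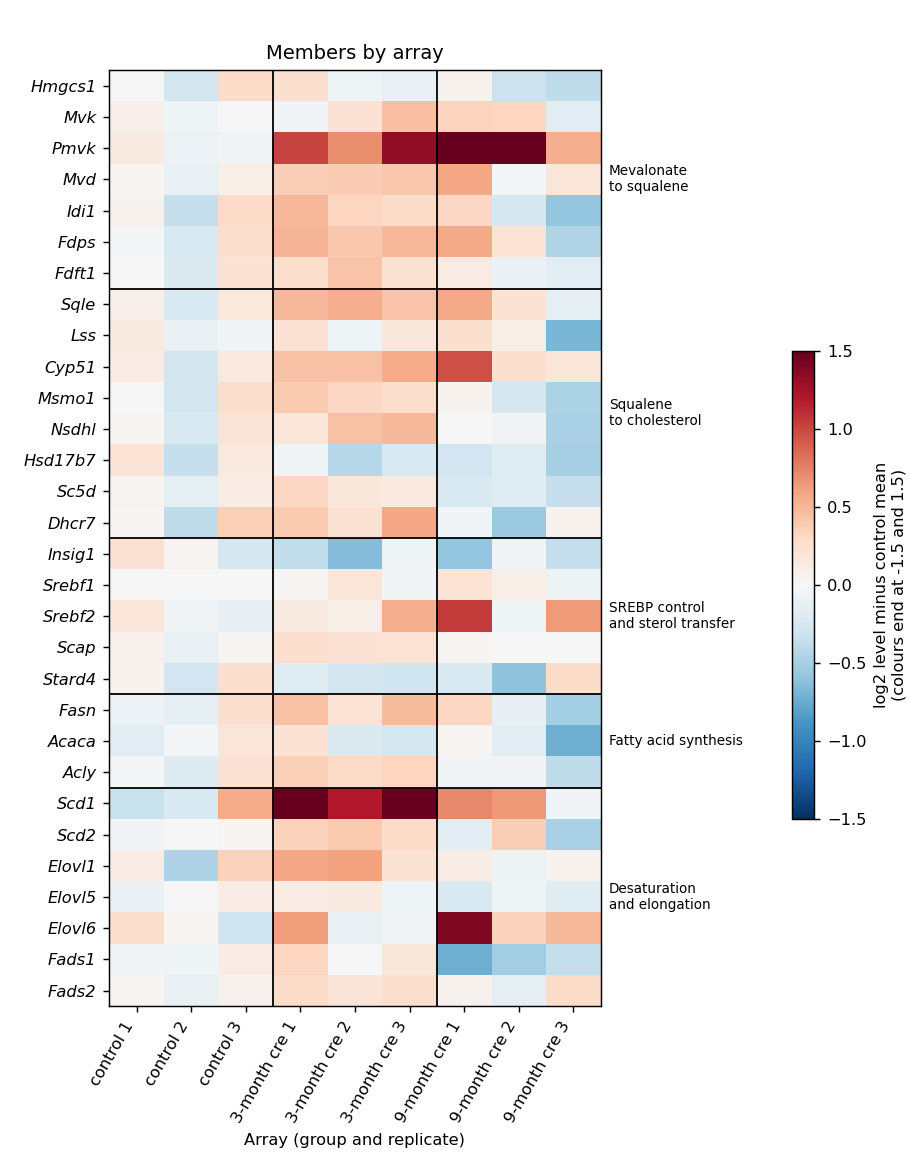
Level of each of the 30 genes on each of the 9 arrays, as log2 level minus the mean of the 3 control arrays, ordered by step of the pathway; colours end at -1.5 and 1.5. The 3-month cre columns are mostly red, Scd1 and Pmvk stand out, and 9-month cre replicates 1 and 3 differ in most sterol genes.

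**Figure D2:**
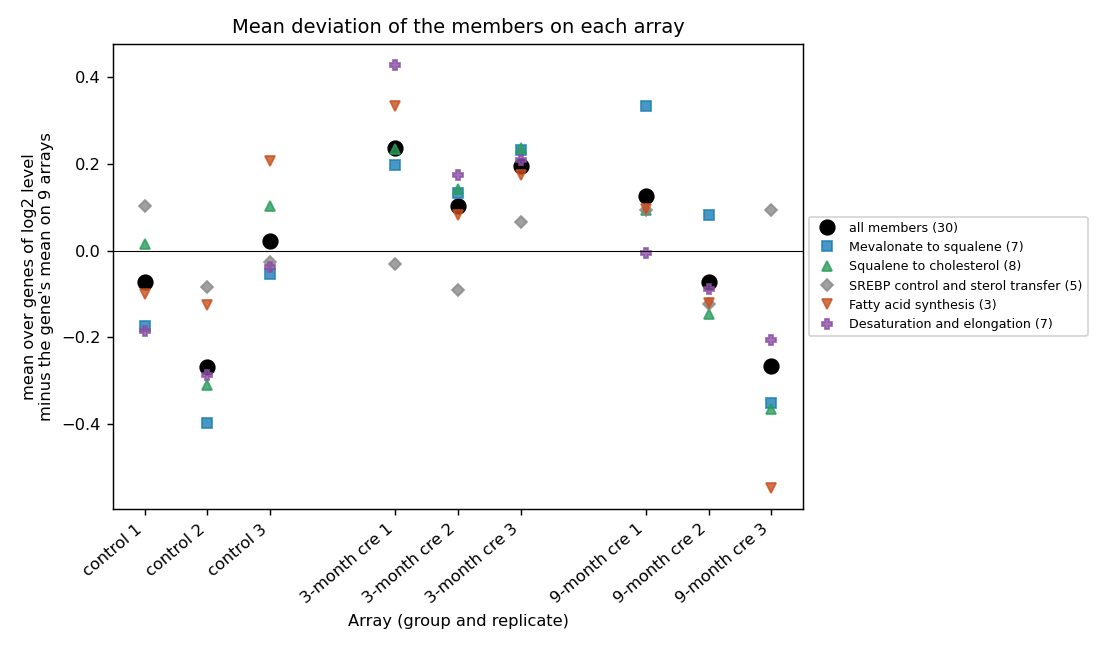
Mean over genes of the log2 level minus the mean of the gene on all 9 arrays, for all 30 members (black) and for each role (colours, number of genes in the key), by array. The 3-month cre arrays lie at 0.10 to 0.24 for all members, and the 9-month cre arrays run from 0.13 down to -0.27.

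Against controls, the 9-month cre lungs had no called member (0 of 30, limma), against 6.45% of all genes called, 3.65% higher and 2.81% lower. At an unadjusted p under 0.05, 2 members had positive and 2 negative values, against 14.8% and 12.5% of all genes. The median log2 fold change of the members was -0.10, with 13 positive and 17 negative, beside 0.024 over all genes, of which 52.8% were positive. The sign of this median was not stable: it was 0.017 without 9-month cre replicate 3 (17 positive, 13 negative), 0.00070 without control replicate 3 (15 and 15), 0.019 when the slide was blocked and 0.015 with sex as a covariate (16 and 14 each). The count of 4 at an unadjusted p under 0.05 ran from 2 to 8 with 1 array left out. It was 2 without 9-month cre replicate 1, and also without replicate 2 or replicate 3 of the 3-month cre lungs, and 8 without 9-month cre replicate 2. In 26 of the 30 the 95% interval of the difference lay within a 2-fold change in either direction (log2 values of -1 to 1), so that larger shifts fall outside the interval for those members, while 11 had an interval within 1.5-fold.

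Against controls, the 3-month cre lungs also had no called member (0 of 30, limma), where 0.451% of all genes were called, 0.368% higher and 0.0831% lower. The values leaned one way: 26 of 30 were positive and 4 negative, beside 57.6% and 42.4% of all genes, and the median was 0.28 beside 0.054. At an unadjusted p under 0.05, 6 members had positive values and 0 negative, against 11.6% and 7.1% of all genes. With 1 array left out, the number of members at that level in either direction was 2 without control replicate 2, and also without replicate 1 or replicate 2 of the 3-month cre lungs. It was 3 without control replicate 1, 4 without 3-month cre replicate 3, 10 without control replicate 3 and 11 without 9-month cre replicate 3. In 13 of 30 members the 3-month cre arrays all lay above the controls, beside 19.6% of all genes. On slide 1 alone, where 3-month cre replicate 1 sits beside the 3 controls, 26 of 30 values were positive with a median of 0.32, and with sex as a covariate 26 were positive with a median of 0.36.

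Between the cre groups, 1 of 30 members fell in 9-month relative to 3-month cre lungs and 0 rose (limma), beside 4.99% of all genes called, 3.2% lower and 1.79% higher. Negative values were found for 24 of 30, beside 53.1% of all genes, with a median of -0.23 beside -0.029. At an unadjusted p under 0.05, 10 members had negative and 0 positive values, against 16.0% and 12.7% of all genes. In 11 members the 9-month cre arrays all lay below the 3-month cre arrays, beside 19.0% of all genes. Within slide 2 alone (3 against 2 arrays) 23 of 30 were negative with a median of -0.20. Leaving out 9-month cre replicate 1 took the median to -0.38 and leaving out 9-month cre replicate 3 to -0.18.

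**Figure D3:**
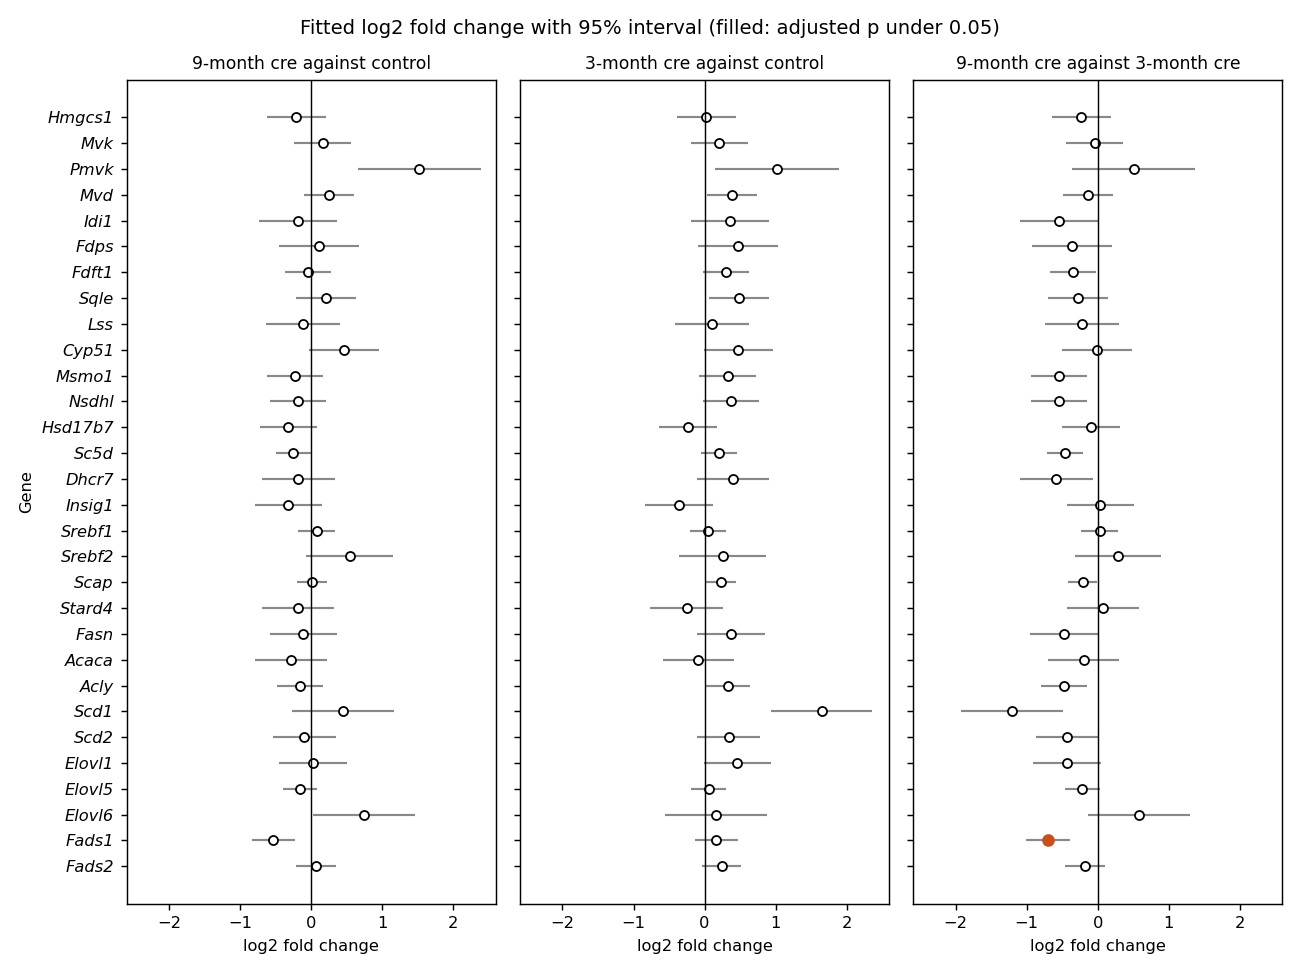
Fitted log2 fold change of each member with its 95% interval in the 3 comparisons; the filled point marks the member with an adjusted p under 0.05. Most points sit right of 0 for 3-month cre against control and left of 0 for 9-month against 3-month cre, and Fads1 is the filled point at -0.70.

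Among the 7 enzymes from mevalonate entry to squalene, 0 were called in any comparison (limma), and 7 of 7 had positive values at 3 months against controls, with a median of 0.36. Hmgcs1, a synthase at the entry to the mevalonate route, stood at 3.61, 3.34 and 3.89 in controls, 3.85, 3.55 and 3.51 in 3-month cre and 3.67, 3.29 and 3.24 in 9-month cre lungs. Its groups overlap throughout, and the difference at 3 months was 0.021 ± 0.18 (SE). Idi1, the isomerase that makes the reactive isoprene unit, was at 2.54, 2.15 and 2.79 in controls, 2.99, 2.81 and 2.77 in 3-month cre and 2.80, 2.23 and 1.91 in 9-month cre lungs. Fdps, which joins isoprene units into farnesyl diphosphate, and Fdft1, which joins farnesyl units into squalene, were each above every control in all 3-month cre arrays, with log2 fold changes of 0.47 ± 0.24 and 0.31 ± 0.14. Fdft1 had the smallest difference of this group at 9 months against controls, -0.045 ± 0.14. Its levels there were 2.17, 1.94 and 1.88 against 2.03, 1.83 and 2.26 in controls, which overlap, and 2.30, 2.47 and 2.26 in 3-month cre lungs, which lie above all 9-month values. Mvd, the mevalonate diphosphate decarboxylase, had 3-month values of -0.39, -0.38 and -0.36 against -0.74, -0.88 and -0.67 in controls, and Mvk, mevalonate kinase, had differences from controls of 0.16 and 0.21 at 9 and 3 months.

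Pmvk, phosphomevalonate kinase (GRCm38.p6 chromosome 3, 89454541 to 89469014), differed most in this group. Its levels were 3.52, 3.30 and 3.34 in controls, 4.40, 4.09 and 4.72 in 3-month cre and 5.20, 5.59 and 3.93 in 9-month cre lungs. Every cre array lay above every control, and 9-month cre replicate 3 was the lowest cre array. The log2 fold change was 1.52 ± 0.38 at 9 months (2.87-fold, 95% interval 0.65 to 2.39, limma adjusted p = 0.0525) and 1.02 ± 0.38 at 3 months (adjusted p = 0.209), neither of them a call. Its second probe gave 1.63 and 1.16. Without 9-month cre replicate 3 the gene was called in each comparison, at 2.01 (adjusted p = 0.00898), 1.02 (0.0453) and, between the cre groups, 0.99 (0.0401) in place of 0.50. Over all alternatives its adjusted p ran from 0.00898 to 0.985 at 9 months and from 0.0453 to 0.749 at 3 months. The highest came from blocking on the slide, which left the values at 1.52 and 1.02. Controls and 9-month cre arrays share no slide. The slide term behind the 1.52 therefore rests on the 3-month cre arrays alone, and that value does not separate slide from genotype.

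Of the 8 enzymes from squalene to cholesterol 0 were called (limma), and all 8 had negative values between the cre groups, with a median of -0.37, 4 of them at an unadjusted p under 0.05. Msmo1, the C4-methyl sterol oxidase, was at 3.12, 2.84 and 3.38 in controls, 3.50, 3.43 and 3.38 in 3-month cre and 3.16, 2.85 and 2.64 in 9-month cre lungs, and the cre groups do not overlap (-0.55 ± 0.17, limma adjusted p = 0.085). Sc5d, the sterol C5 desaturase, was at 1.68, 1.50 and 1.75 in controls, 1.96, 1.81 and 1.79 in 3-month cre and 1.41, 1.47 and 1.29 in 9-month cre lungs. It was the one member with all 3 groups apart in every pair, 3-month cre highest and 9-month cre lowest. Its difference between the cre groups was -0.46 ± 0.11 (limma adjusted p = 0.0519, and 0.0406 to 0.236 over the alternatives). Nsdhl, a sterol dehydrogenase, and Dhcr7, the reductase of the last step, had -0.55 ± 0.17 and -0.58 ± 0.22, and for both the cre groups do not overlap. Sqle, squalene epoxidase and a flux-controlling step, had 0.49 ± 0.19 at 3 months against controls, with levels of 2.78, 2.83 and 2.72 against 2.37, 2.05 and 2.44.

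Cyp51, the lanosterol demethylase, had the largest difference from controls at 9 months among these 8 by the probes used, and its probes disagree. It was at 0.57, 0.17 and 0.59 in controls, 0.88, 0.89 and 1.00 in 3-month cre and 1.40, 0.69 and 0.63 in 9-month cre lungs, so that both cre groups lay above all controls. The log2 fold changes were 0.47 ± 0.21 at 9 months and 0.48 ± 0.21 at 3 months (limma adjusted p = 0.201 and 0.275). A second, dimmer Cyp51 probe stood at -0.23 and 0.16, the mean over both probes was 0.12 at 9 months, and the used probe was at 0.22 without 9-month cre replicate 1. Lss, lanosterol synthase, had the smallest by the probes used, and its probes differ in size. It was at 0.42, 0.20 and 0.25 in controls, 0.51, 0.23 and 0.46 in 3-month cre and 0.53, 0.38 and -0.39 in 9-month cre lungs, where replicate 3 stood below every other array. Its other kept probes stood at -0.58 and -0.30 at 9 months. On the first of these all 9-month cre arrays lay below all controls. Hsd17b7, a sterol ketoreductase, was the 1 enzyme of these 8 with a negative value at 3 months, -0.23 ± 0.18, and its second probe stood at 0.24.

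The control proteins showed no called difference in any comparison (0 of 5, limma). Srebf1, which drives mainly the fatty acid genes, was the steadiest in controls, at 3.78, 3.79 and 3.77, and stood at 3.80, 3.96 and 3.74 in 3-month cre and 3.99, 3.87 and 3.70 in 9-month cre lungs. Its differences from controls were 0.074 ± 0.11 and 0.049 ± 0.11, with 95% intervals of -0.18 to 0.33 and -0.21 to 0.30. Srebf2, which drives mainly the sterol genes, had the largest difference of the 5 at 9 months. It was at -0.66, -0.89 and -0.97 in controls, -0.71, -0.75 and -0.30 in 3-month cre and 0.20, -0.91 and -0.20 in 9-month cre lungs, with replicate 2 inside the controls (0.54 ± 0.27, limma adjusted p = 0.226). Without that replicate the value was 0.84 and was called (adjusted p = 0.0407, over the alternatives 0.0407 to 0.985), and without replicate 1 it was 0.29. Scap, the sterol-sensing escort, had the smallest difference at 9 months, with levels of 2.93, 2.76 and 2.91 in controls, 2.90, 2.87 and 2.87 in 9-month cre and 3.12, 3.09 and 3.07 in 3-month cre lungs, all above the other 2 groups. Insig1, itself a target gene of SREBPs, and Stard4, a carrier of cholesterol between membranes, had negative values against controls at both times (-0.32 and -0.36 for Insig1, -0.19 and -0.25 for Stard4). At 3 months 26 of 30 members had positive values, and these were 2 of the 4 that did not, although a second, dimmer Stard4 probe stood at 0.49.

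The 3 core enzymes of fatty acid synthesis were not called (0 of 3, limma), and 3 of 3 had negative values between the cre groups. Acly, which supplies cytosolic acetyl-CoA, was at 4.19, 4.03 and 4.44 in controls, 4.58, 4.50 and 4.54 in 3-month cre and 4.18, 4.17 and 3.84 in 9-month cre lungs. The 3-month cre arrays lay above all others, and the difference between the cre groups was -0.48 ± 0.14 (limma adjusted p = 0.0733). Fasn, fatty acid synthase, was at 5.72, 5.66 and 6.04 in controls, 6.25, 6.01 and 6.28 in 3-month cre and 6.11, 5.68 and 5.30 in 9-month cre lungs. Its value between the cre groups was -0.48 ± 0.21, with overlap between replicate 2 of the first and replicate 1 of the second. Acaca, the carboxylase that makes malonyl-CoA, was at 2.90, 3.05 and 3.25 in controls. It was at 3.28, 2.85 and 2.80 in 3-month cre and 3.11, 2.90 and 2.33 in 9-month cre lungs. By the probe used, the groups overlap in each comparison. A dimmer kept Acaca probe stood at -0.76 ± 0.25 at 9 months and -0.55 ± 0.25 at 3 months against controls, neither called (limma). On it, all 9-month cre arrays (-0.98, -1.06 and -1.39) lay below all controls (-0.44, -0.45 and -0.25). Another kept probe, dimmer still, stood at -0.32 and -0.44.

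The 1 called member was Fads1, the delta-5 desaturase that completes arachidonic and eicosapentaenoic acid (GRCm38.p6 chromosome 19, 10182877 to 10196874). Its levels were 0.57, 0.55 and 0.72 in controls, 0.94, 0.62 and 0.79 in 3-month cre and -0.12, 0.10 and 0.26 in 9-month cre lungs. Every 9-month cre array lay below every other array, and the control and 3-month cre ranges overlap. Fads1 fell by 0.70 ± 0.13 from 3-month to 9-month cre lungs (1.63-fold lower, 95% interval -1.01 to -0.39, n = 3 against 3, limma adjusted p = 0.0353, over the alternatives 0.0263 to 0.206). Against controls at 9 months it was at -0.53 ± 0.13 (adjusted p = 0.0529), and it was called there with 5 alternatives, quantile normalization and the deposited values among them, while blocking on the slide took it to -0.30. The call between the cre groups was lost, at a like size, within slide 2 (-0.62, adjusted p = 0.206), when the slide entered as a block (-0.62, 0.121) and with the replicate block (-0.70, 0.0784). It was also lost without control replicate 1 or 2 (-0.70 each, 0.0524 and 0.0607), without 3-month cre replicate 1, 2 or 3 (-0.62, -0.78 and -0.70, 0.121, 0.112 and 0.0742) and without 9-month cre replicate 1 (-0.60, 0.088). Fads2, the delta-6 desaturase of the same route and a neighbour of Fads1 on chromosome 19, was at 0.062 ± 0.12 against controls at 9 months and -0.18 ± 0.12 between the cre groups.

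Scd1, the delta-9 desaturase that makes oleic and palmitoleic acid (GRCm38.p6 chromosome 19, 44394450 to 44407709), had the widest difference of any member, and its every-array values are given because of that size. It was at 3.69, 3.79 and 4.58 in controls, 5.93, 5.22 and 5.86 in 3-month cre and 4.74, 4.67 and 3.98 in 9-month cre lungs. All 3-month cre arrays lay above all others, and the 9-month cre and control ranges overlap. The log2 fold change at 3 months was 1.65 ± 0.31 (3.13-fold, 95% interval 0.93 to 2.36, limma adjusted p = 0.0742) and that between the cre groups -1.20 ± 0.31 (adjusted p = 0.059), and neither was called. On slide 1 alone the 3-month value was 1.91, and within slide 2 the value between the cre groups was -1.07. It was called at 3 months without control replicate 3 (1.93, adjusted p = 0.0431) or without 9-month cre replicate 3 (1.65, 0.0419), and between the cre groups without control replicate 3 (-1.20, 0.0413) or with normexp background correction (-1.22, 0.0444). Against controls at 3 months and between the cre groups the adjusted p over the alternatives ran from 0.0419 to 0.544 and from 0.0413 to 0.218. Scd2, a second isoform, differed by 0.34 ± 0.19 at 3 months, with levels of 5.47, 5.52 and 5.40 against 5.09, 5.13 and 5.16. It was called between the cre groups without 9-month cre replicate 2, at an adjusted p of 0.0318 and otherwise up to 0.456.

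Among the elongases, Elovl6, which extends palmitate to stearate, had the largest value at 9 months against controls in its role group, 0.74 ± 0.31 (limma adjusted p = 0.171), and 1.45 when the slide was blocked. It was at 0.24, 0.021 and -0.31 in controls, 0.62, -0.12 and -0.049 in 3-month cre and 1.39, 0.33 and 0.47 in 9-month cre lungs. All 9-month cre arrays lay above the controls, with replicate 1 far above the other two. Elovl1, which makes very long saturated chains, had the smallest, 0.028 ± 0.21, at 6.27, 5.69 and 6.50 in controls, 6.73, 6.75 and 6.36 in 3-month cre and 6.26, 6.07 and 6.20 in 9-month cre lungs. Elovl5, which extends polyunsaturated chains, stood between 3.77 and 4.12 on all arrays.

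**Figure D4:**
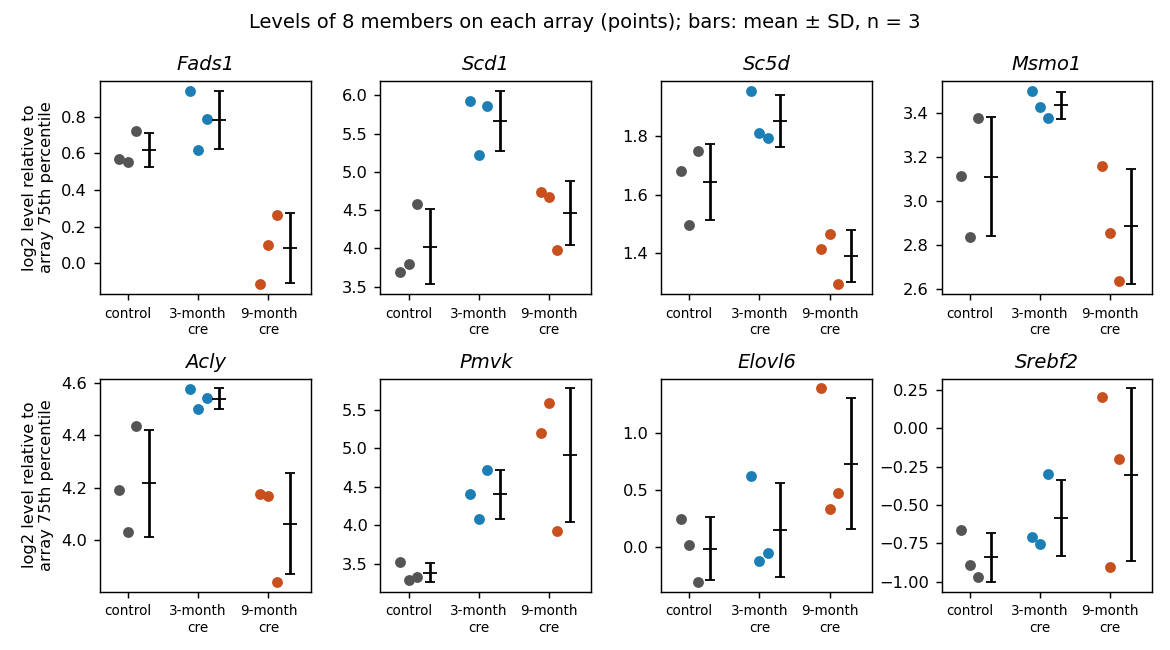
Levels of 8 members on each array, relative to the 75th percentile of the array; points are arrays in replicate order and bars are mean ± SD (n = 3), with a separate scale in each panel. Fads1 and Sc5d are lowest in 9-month cre lungs, Scd1 is highest in 3-month cre lungs, and Pmvk is lowest in controls.

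Further probes had the sign of the probe used in most cases. Of 15 other kept probes, for 13 members, 10 had the sign of the probe used at 9 months against controls, 10 at 3 months and 11 between the cre groups. In a fit over all 37646 kept probes, 3 of these 15 were called lower between the cre groups, where 3.45% of all probes were. They were a second probe of Elovl1 at -1.29, of Msmo1 at -1.27 and of Mvk at -0.63, while the used probes of Elovl1 and Mvk stood at -0.44 and -0.045. A second Acly probe, at a mean level of -4.05, stood at 0.64 between the cre groups, opposite to the brighter probe.

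The members also varied together from lung to lung within a group. Over 435 pairs of members, the median Pearson r of the deviations from the group means on the 9 arrays was 0.37, beside 0.011 over all pairs of genes tested, and 39.1% of member pairs were above 0.5. These deviations share the arrays, their hybridisation and 3 lungs a group, and they are given as a description. Msmo1 and Hmgcs1 followed the other members most closely, with median r of 0.68 and 0.67, and Idi1, Fdps, Acly and Sqle had 0.64, 0.63, 0.62 and 0.57. Insig1, Fads1 and Fads2 had the lowest median r, -0.25, -0.21 and -0.11, followed by Stard4 and Elovl5 at -0.0011 and 0.053. In 9-month cre replicate 3, 14 of 30 members had their lowest level of all arrays, and control replicate 2 held the lowest level of 7. The highest levels were in 3-month cre replicate 1 for 9 members and in 9-month cre replicate 1 for 8.

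Other genes of lipid synthesis were read from lists of their own. The shares of all genes called higher (limma) were 3.65%, 0.368% and 1.79% at 9 months, at 3 months and between the cre groups. Those called lower were 2.81%, 0.0831% and 3.2%. At an unadjusted p under 0.05 in either direction were 4602, 3155 and 4839 of all 16842 genes. Of 19 measured further sterol and isoprenoid genes 0 were called in any comparison (limma), with 4, 3 and 3 at an unadjusted p under 0.05 and medians of 0.0036, 0.11 and -0.064 at 9 months, at 3 months and between the cre groups. Tmem97, a sterol-responsive membrane protein, was at -0.62 ± 0.17 at 9 months. Among 21 further fatty acid genes, 0 were called against controls (limma, 7 and 1 at an unadjusted p under 0.05), and 2 fell between the cre groups, Tecr, the last enzyme of the elongation cycle, by 0.62 ± 0.14 and Mid1ip1, an activator of acetyl-CoA carboxylase, by 0.53 ± 0.12. The list medians were -0.068, 0.094 and -0.16. Of 16 glycerolipid genes Gpam, the first acyltransferase of triglyceride synthesis, fell by 0.69 ± 0.12 at 9 months, and Chpt1, which makes phosphatidylcholine, fell by 1.16 ± 0.20 between the cre groups, with list medians of -0.0083, 0.013 and -0.0017. Of 17 genes of sterol export and oxysterols, Ch25h, the cholesterol 25-hydroxylase, rose by 1.95 ± 0.35 and Cyp7b1, an oxysterol hydroxylase, by 1.53 ± 0.27 at 9 months against controls. At 3 months they were at 1.72 ± 0.35 and 0.72 ± 0.27 and were not called. Between the cre groups Npc2, a lysosomal sterol carrier, fell by 0.91 ± 0.20 and Nr1h3, a nuclear receptor for oxysterols, rose by 0.54 ± 0.12, and the medians were 0.063, 0.061 and -0.013. Of 18 fatty acid oxidation genes 0 were called (limma, 3, 2 and 5 at an unadjusted p under 0.05), with medians of -0.13, -0.058 and -0.12.

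Markers of cells that make or hold these lipids also differed between the groups, and their part in the members' values was not tested. Alveolar type 2 markers had medians of -0.42, 0.27 and -0.48 in the order used above. At 9 months against controls 3 of 15 were called lower, beside 2.81% of all genes (limma). Between the cre groups 4 of 15 were called lower, beside 3.2% of all genes, Slc34a2 by 1.99 ± 0.25. The list split at 9 months against controls, with 6 positive and 9 negative values. All 9-month cre arrays lay above the controls in 4 markers and below them in 4, beside 17.5% and 15.0% of all genes. Sftpb was among those above, at 0.79 ± 0.26, not called. Their summed level relative to the 75th percentile was 751 to 899 in controls, 887 to 1190 in 3-month cre and 911 to 1200 in 9-month cre lungs. Lipid-handling and alveolar macrophage markers had medians of 0.67, 0.90 and -0.26. Of these 17, 6 and 5 were called higher than in controls, beside 3.65% and 0.368% of all genes, Gpnmb by 2.71 ± 0.24 and 2.40 ± 0.24. At 9 months against controls 14 had positive and 3 negative values. Siglecf, at -0.63, and Cd36, at -0.77, were among the negative ones and were not called. The alveolar macrophage markers Marco, Ear2 and Pparg stood at 0.90, 0.20 and 0.31 and were not called either. The summed level of the 17 markers was 188 to 281, 416 to 477 and 332 to 442 in the 3 groups. Fabp5 had no value on 9-month cre replicate 3, so the sum of that array lacks it and is not fully comparable. Bright genes weigh most in such a sum, and Chil3 was the brightest, at 7.74, 7.28 and 6.72 in 9-month cre lungs. Fat cell markers, 13 of 13 measured and 0 called (limma, 2, 1 and 0 at an unadjusted p under 0.05), had medians of -0.80, -0.35 and -0.11. Their summed level was 19.6 to 80.0, 18.1 to 52.2 and 14 to 31.4, and Adipoq was highest in control replicate 2, at 2.41. No defining marker of these 3 lists was missing from the measured genes. Neutrophil markers, 11 of 12 measured, had medians of 1.82, 1.30 and 0.53. Of these, 3 were called higher at 9 months against controls and 1 between the cre groups, beside 3.65% and 1.79% of all genes (limma). Heart markers had medians of -0.78, -1.56 and 0.65, with 1 of 14 called lower at 9 months, beside 2.81% of all genes. Club cell markers had medians of 0.096, 0.13 and -0.33. Liver markers, 5 of 9 measured, had medians of 0.51, -0.31 and 0.84, with values from -1.58 to 2.92 at 9 months against controls. Of 14 clock genes, a set that shifts with time of day, 3 fell at 9 months against controls and 3 between the cre groups. The shares of all genes called lower there were 2.81% and 3.2%. Among the clock genes Nr1d1 fell by 1.83 ± 0.22 and 1.39 ± 0.22, and the list medians were -0.26, 0.00067 and -0.44. The labels do not state the time of day at collection.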

How the data were processed

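RNA of 9 whole lungs was measured on 1-colour arrays. The scanner files hold intensity per spot, which per the file headers came from Agilent Feature Extraction 10.7.3.1 with local background subtracted within each array and no scaling between arrays. A second deposited set holds linear intensity with nearly equal array medians (163.3 to 164.1). The steps by which the authors made it are not given in the sources used here. Irregular spots were left out, spots of a probe were averaged on the log2 scale, and the 75th percentile of each array was subtracted. A probe was kept where all 3 arrays of some group had it well above background (37646 of 56605). RefSeq transcript identifiers named 32994 probes, and the brightest kept probe stood for a gene. Groups were fitted together in limma 3.58.1 (R 4.3.3), two-sided, with Benjamini-Hochberg adjustment over 16842 genes, 10 of which lacked a value on some array. The code was tested on simulated data. Plots and motif counts used Python 3.11.15. The members, the gene lists and the tests were chosen with earlier results of these data known. Every member is reported, with every-array values for called members and for the largest and smallest 9-month difference in each role, and further members were chosen after their values were seen. From other lists up to 3 called genes, or up to 2 as values, could be named, and further cell markers were named after their values were seen. Alternatives covered background correction, scaling, the deposited values, filters, probes, slide, sex, pairing, groups in the fit and each array left out.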

Additional observations from a re-analysis of the deposited data

Results flagged for a closer look

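Fads1 is listed because the 2 cre groups differed. The 9-month cre lungs stood at -0.70 ± 0.13 on the log2 scale relative to the 3-month cre lungs (limma adjusted p = 0.0353), lower in 3 of 3 arrays than in any 3-month cre array. Age and length of tamoxifen exposure differ together between these groups, and no control of the younger age was analysed, so this is not a test of a change in the effect of cre. No group had enough arrays for a test of single outlying samples.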

How the results depend on the processing

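Counts are of limma calls. Among members, the main count of 0 at 9 months against controls became 2 with normexp correction (Pmvk, Fads1), 1 with quantile normalization, 1 with the deposited values (Fads1 each), 2 with the filter requiring all arrays and 1 with the mean over probes (Pmvk). At 3 months it became 1 with the 2 groups alone (Pmvk). Between the cre groups the count of 1 became 3 with normexp correction, 2 with the deposited values, 2 with the filter requiring all arrays, 3 with the mean over probes, and 0 with no filter, the slide as a block, within slide 2, the replicate block and the 2 groups alone. Leaving out single arrays gave 0 to 2, 0 to 2 and 0 to 3 members in the 3 comparisons, and a median between the cre groups of -0.38 to -0.18. The member median at 9 months against controls, -0.10, ran from -0.19 with quantile normalization to 0.019 with the slide as a block, and changed sign. In all, 16, 20 and 21 of 30 members kept their sign under all alternatives at 9 months, at 3 months and between the cre groups.

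Over all genes, 1087 calls at 9 months became 489 with no filter, 317 with the replicate block, 185 with the 2 groups alone, and 0 with the slide as a block or sex as a covariate (837 and 3709 at an unadjusted p under 0.05). The split of 614 higher and 473 lower became 554 and 651 with the deposited values. At 3 months 76 calls became 49 with normexp correction, 43 with the deposited values, 14 with no filter, 45 with the filter requiring all arrays, 42 with the replicate block, 389 with the 2 groups alone, 4 within slide 1, and 0 with slide or sex (1144 and 2189 at an unadjusted p under 0.05). Between the cre groups 840 became 427 with median scaling, 104 with no filter, 234 with sex, 6 with the replicate block, 335 with the 2 groups alone, and 0 with the slide block or within slide 2 (3589 and 2975 at an unadjusted p under 0.05). Leaving out single arrays gave 158 to 1638, 1 to 322 and 0 to 1224 calls. The cause of these moves was not tested. Arrays with the same replicate number did not deviate together (r of -0.24 to 0.045 over genes), so the replicate block pairs arrays by number alone. With 3 arrays a group, precision is limited by their number.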
